A study of Homo sapiens with 18 samples.

Results

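The genes described here are ID1, ID2, ID3, ID4, SMAD6, SMAD7, HES1, HES4 and HEY1, which are widely read as outputs of BMP and Notch signalling, and the BMP ligand gene BMP4. All were followed through erastin (ER) treatment of 2 human colon cancer cell lines. The members were chosen with earlier results of these data known. They were given by name, and all 10 of 10 were found among the 135750 transcripts tested. Where several transcripts were annotated to 1 gene alone, as for SMAD7 only, the transcript with the highest mean over the 18 arrays was taken. HT-29 and HCT116 are established lines grown from colorectal tumours, and the study put 3 arrays on each of 3 conditions in each line: untreated cells, cells after 4 h of ER and cells after 24 h of ER. ER, given at 2.5 µM, is a small molecule that blocks cystine uptake and brings on ferroptosis, an iron-dependent form of cell death. A single untreated group per line served both times, and neither a vehicle nor a time in culture is stated for it, so the effects of ER, of vehicle and of time in culture cannot be told apart. The methods give 3 independent experiments, while the labels give only replicate numbers, so p-values measure the spread among these arrays. In RNA from whole cultures, fewer cells that carry a transcript and less of it per cell cannot be told apart.

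BMP ligands such as BMP4 bind paired receptor kinases, which phosphorylate SMAD1, SMAD5 and SMAD9, and these enter the nucleus with SMAD4. The ID genes are classical direct targets. Their products lack a DNA-binding domain and hold bHLH transcription factors in pairs that cannot bind DNA. SMAD6 and SMAD7 are inhibitory SMADs, induced by the signal and acting back on it. In Notch signalling a cleaved receptor fragment joins RBPJ and Mastermind proteins on DNA and switches on HES and HEY genes, which encode bHLH repressors. In the intestinal crypt, Notch and HES1 hold progenitors away from the secretory fates, and BMP signals rise towards the surface epithelium. Both sets of genes also answer to other signals.

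The values are normalized log2 signals as deposited by the authors. They ran from 2.283 to 19.92, above the 16 that a scanner signal of 16 bits reaches on the log2 scale, so folds, taken here as 2 to the power of a difference, share a doubt about the scale. A transcript was called differentially expressed (a DET) when it differed at least 1.2-fold with a limma p, before adjustment, of 0.005 or less. The cutoffs are those of the methods, which applied them to a t-test and permutation p, and Benjamini-Hochberg adjusted p-values over all transcripts are given beside it. Array medians lay between 5.437 and 5.614, and arrays of 1 group correlated at 0.945 to 0.984. Arrays of different lines correlated at 0.934 to 0.983, nearly the same range, so these values do not set the lines apart. Levels of the lines were normalized separately per the methods, so they are set side by side and not tested. The array carries 612 negative-control features, whose median lay between 6.08 and 6.641 and whose 95th percentile lay between 8.571 and 9.333. All ID4 and HEY1 values, and all SMAD6 values outside the HT-29 replicate 1 arrays, lay below that 95th percentile on every array, and the deposited table holds no detection calls.

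EPCAM, an epithelial surface protein, lay between 14.26 and 15.87 on every array. KRT8, KRT18 and KRT19, epithelial keratins, averaged at least 13.95 in HCT116 and in each HT-29 replicate. CDX1 and PHGR1, intestinal epithelial markers, averaged 5.07 to 5.76 in the same sets of arrays, in the range of the negative controls. VIL1 and LGALS4, also intestinal, averaged 5.59 and 5.41 in HCT116. In HT-29 they averaged 8.29 and 10.48 in replicate 1, 5.74 and 6.55 in replicate 2, and 6.22 and 7.01 in replicate 3. The 3 arrays labelled HT-29 replicate 1 stood apart in 4 of 10 markers of differentiated intestinal cells, LYZ, KRT20, CEACAM5 and CEACAM6. LYZ, which encodes lysozyme, averaged 17.12 over these 3 arrays, against 10.34 in replicate 2, 11.24 in replicate 3 and 5.84 over the 9 HCT116 arrays. VIL1, LGALS4 and CDH1, an epithelial marker, split likewise. CDH1 averaged 13.20 in replicate 1, 11.20 and 11.66 in replicates 2 and 3, and 11.20 in HCT116. In all of these split markers, replicates 2 and 3 averaged nearer to HCT116 than to replicate 1. MUC2, TFF3, FABP1, SI, ALPI and CHGA averaged 4.40 to 6.38 in replicate 1 and 4.35 to 6.66 in replicates 2 and 3, and CDX2, an intestinal transcription factor, was lower in replicate 1 (8.10) than in replicates 2 and 3 (8.90 and 9.30). The log2 of the mean linear signal over the 10 markers spanned 7.74 to 14.2 in HT-29 and 5.66 to 6.1 in HCT116. The other marker lists, with 5 of 6 fibroblast, 5 of 6 leukocyte and 5 of 5 endothelial genes measured, had such mean levels of 7.25 to 7.76, 6.37 to 7.11 and 5.42 to 5.89 over the 18 arrays. Which HT-29 arrays are typical of the line was not tested. Since each HT-29 condition holds 1 array of replicate 1, the HT-29 changes from untreated cells are also given below from replicates 2 and 3 alone. In that setting 2 arrays stand against 2, and it is not taken as the better estimate.

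**Figure D1:**
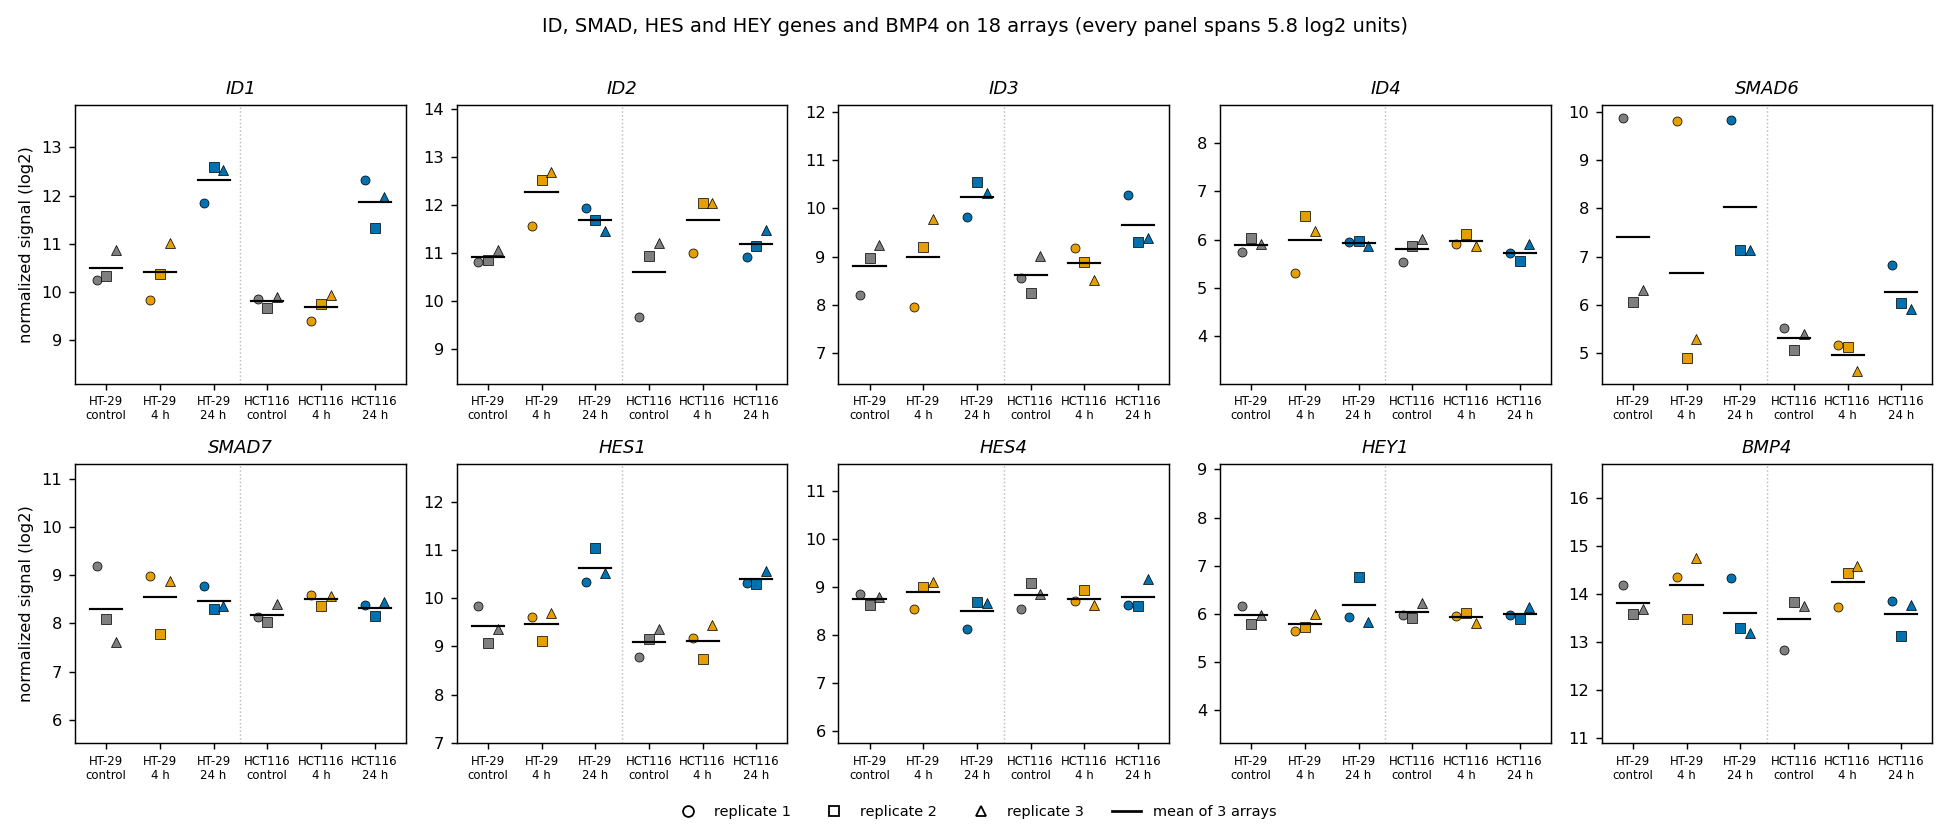
Normalized log2 signal of each gene (vertical axis) on every array, in untreated cells and after 4 h and 24 h of ER (horizontal axis), for HT-29 and HCT116. ID1 and HES1 lay higher at 24 h than at both earlier conditions in both lines, ID2 had its highest group mean at 4 h in both lines, and SMAD6 split the HT-29 arrays by replicate.

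At 4 h of ER, 1 of the 10 genes was a DET in HT-29 (ID2, higher), where 0.147% of all transcripts were DETs in that direction, and 0 of 10 in HCT116, where the share was 0.116%. At 24 h, 2 of 10 were higher DETs in HT-29 (ID1 and HES1; 0.233% of all transcripts) and 4 of 10 in HCT116 (ID1, ID3, SMAD6 and HES1; 0.824% of all). No gene of the 10 was a lower DET in these comparisons, where 0.0766% and 0.144% of all transcripts were lower DETs in HT-29 at 4 h and 24 h, and 0.175% and 0.413% in HCT116. Every 24 h array lay above every untreated array for 4 of 10 genes in each line, against 5.12% of all transcripts in HT-29 and 5.94% in HCT116. The median difference of the 10 at 24 h was 0.41 in HT-29, beside 0.02 over all transcripts, and 0.36 in HCT116, beside -0.02. All transcripts include 98455 annotated to no gene, so these shares and medians come from an unlike background. The 10 genes were also chosen with earlier results of these data known. Their excess over these shares and medians is therefore no support for them as a set. At the adjusted threshold, 1 of 10 was called in HCT116 at 24 h (ID1), with 0.0081% of all transcripts called. The adjusted threshold called 0 of 10 in the other comparisons with untreated cells, in which 0% (both lines at 4 h) and 0.00221% (HT-29 at 24 h) of all transcripts were called, and an unadjusted limma p under 0.05 was reached by 1 and 4 of the 10 in HT-29 at 4 h and 24 h (3.51% and 3.69% of all transcripts) and by 2 and 4 in HCT116 (3.85% and 8.53%).

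**Figure D2:**
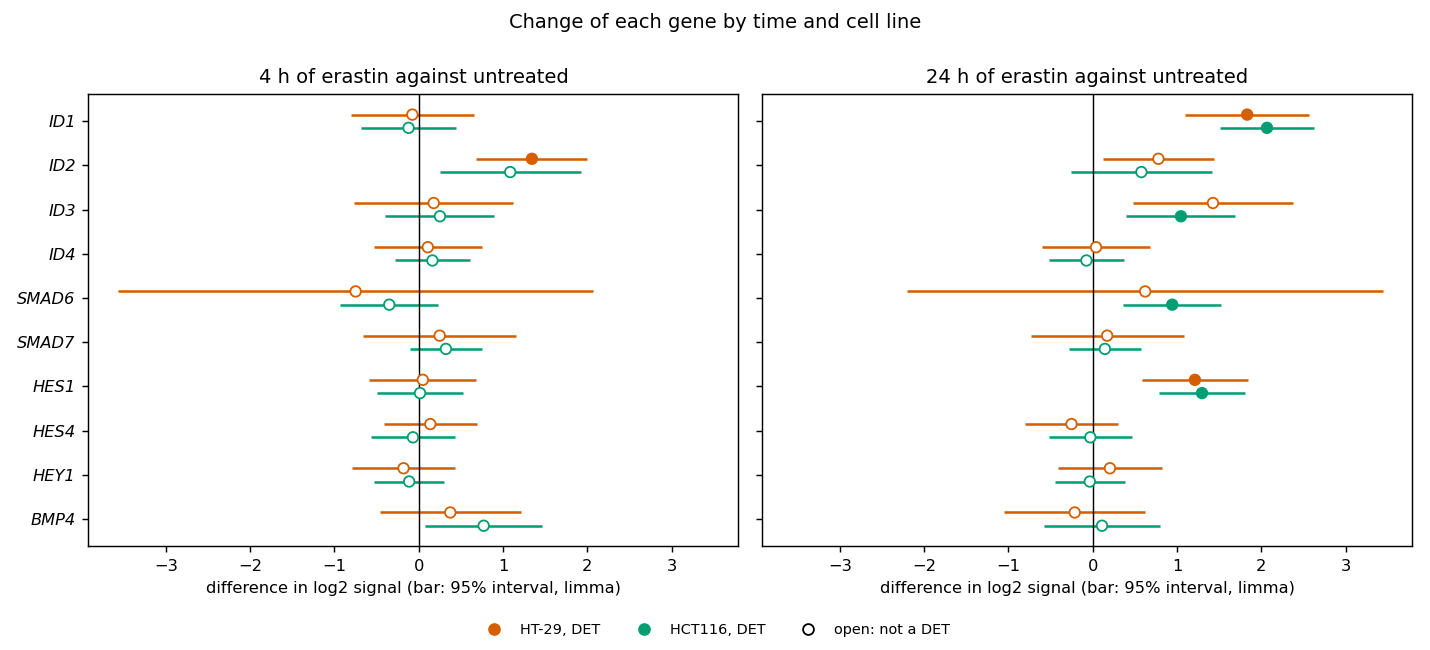
Difference in log2 signal from untreated cells (horizontal axis, with 95% limma intervals as bars) for each of the 10 genes, at 4 h and at 24 h of ER, in both lines. ID2 stood highest at 4 h in both lines, ID1, ID3 and HES1 stood to the right of 0 at 24 h, and SMAD6 in HT-29 had the widest interval.

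ID1 is the ID gene most often used as a readout of BMP signalling. Its upstream sequence and that of ID2 are shown because the 2 genes differed in time course and in the motifs found. Both come from RefSeq (GRCh38.p14), are the 250 bases before the annotated start, and lie on the plus strand, ID1 at chr20:31605039-31605288 and ID2 at chr2:8681806-8682055. Capitals mark GTCTAG, part of a palindrome bound by SMADs, and CCAAT, the box bound by NF-Y, on either strand (read here as CTAGAC and ATTGG where they lie on the minus strand).
ID1: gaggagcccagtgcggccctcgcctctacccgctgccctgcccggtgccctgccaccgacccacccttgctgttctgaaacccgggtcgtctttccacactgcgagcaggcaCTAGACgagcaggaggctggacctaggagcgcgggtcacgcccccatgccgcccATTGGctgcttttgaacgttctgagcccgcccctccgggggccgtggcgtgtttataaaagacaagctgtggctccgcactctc
ID2: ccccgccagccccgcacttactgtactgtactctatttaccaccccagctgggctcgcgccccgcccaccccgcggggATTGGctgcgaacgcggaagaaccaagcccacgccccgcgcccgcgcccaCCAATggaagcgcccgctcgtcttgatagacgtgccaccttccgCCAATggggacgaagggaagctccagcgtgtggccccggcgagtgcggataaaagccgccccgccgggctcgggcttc
GTCTAG occurred in 4.92% of 35116 RefSeq promoter windows of this length and CCAAT in 32%. ID1 held 1 GTCTAG, 138 bases before the start, overlapping a CACNAG (the N box, found in 32% of windows), and 1 CCAAT. ID2 held 3 CCAAT, at 172, 122 and 78 bases, and no GTCTAG. ID3 held none of the 5 motifs searched and ID4 held 1 CCAAT. A match describes letters in a window and says nothing of binding.

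ID1 rose at 24 h in both lines and lay within the untreated range or close to it at 4 h. Its transcript lies at chr20:31605289-31606510 (GRCh38.p14), and its mean over the 18 arrays stood at percentile 94.8 of all transcripts. In HT-29 its log2 signal was 10.25, 10.33 and 10.87 in untreated cells, 9.83, 10.37 and 11.02 at 4 h, and 11.84, 12.58 and 12.53 at 24 h. In HCT116 it was 9.86, 9.67 and 9.90 untreated, 9.39, 9.75 and 9.93 at 4 h, and 12.33, 11.33 and 11.97 at 24 h. All 24 h arrays were thus above all other arrays of their line, while the untreated and 4 h arrays overlapped. The 24 h difference from untreated cells was 1.83 in HT-29 (SE 0.34, fold 3.56, limma p 0.000153, adjusted p 0.61) and 2.07 in HCT116 (SE 0.26, fold 4.19, p 2.97e-06, adjusted p 0.0367). Against 4 h the differences were 1.91 in HT-29 (adjusted p 0.157) and 2.19 in HCT116 (adjusted p 0.0146). It was a DET in all 4 of these comparisons and in each of the 9 fits that left out 1 array of the line. The adjusted call in HCT116 against untreated cells was less firm, with an adjusted p of 0.0142 without 24 h replicate 2 and of 0.0652 to 0.239 without any other single array. Against 4 h it was lost without 4 h replicate 1, 2 or 3 (adjusted p 0.0969, 0.0807 and 0.0728). From HT-29 replicates 2 and 3 alone the difference from untreated cells was 1.96 at 24 h and 0.09 at 4 h.

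ID3, at chr1:23557926-23559501, was a DET at 24 h in HCT116 and lay higher at 24 h in HT-29 without passing the DET limit there. HCT116 arrays read 8.56, 8.25 and 9.02 untreated, 9.18, 8.89 and 8.51 at 4 h, and 10.27, 9.30 and 9.39 at 24 h. HT-29 arrays read 8.20, 8.98 and 9.25 untreated, 7.96, 9.20 and 9.79 at 4 h, and 9.83, 10.55 and 10.31 at 24 h. In each line every 24 h array was above every untreated and every 4 h array, with the smallest gap between 9.79 and 9.83 in HT-29. The difference from untreated cells was 1.05 in HCT116 (SE 0.30, p 0.00408, adjusted p 0.384) and 1.43 in HT-29 (SE 0.43, p 0.00656, adjusted p 1). The ID3 call in HCT116 was lost without untreated replicate 1, untreated replicate 2, 4 h replicate 2 or 24 h replicate 1 (differences 1.02, 0.86, 1.05 and 0.74, p 0.0132, 0.0225, 0.00651 and 0.0206). In HT-29, ID3 became a DET without 4 h replicate 1 or 4 h replicate 3 (p 0.00098 and 0.00339), from replicates 2 and 3 alone (1.32, p 0.00211, with 0.38 at 4 h) and, at the same difference of 1.43, in a fit limited to the compared groups, in 1 fit of all 18 arrays and under array weights (p 0.00119, 0.00216 and 0.00265). With the replicate block in limma, ID3 was a DET in HT-29 at 1.43 (p 0.000368, adjusted p 0.587). Against 4 h, ID3 was higher by 1.25 in HT-29 (p 0.0139) and 0.79 in HCT116 (p 0.02). In HT-29 it became a DET against 4 h without 4 h replicate 3 or with the replicate block (p 0.00101, adjusted p 0.276).

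ID2, at chr2:8682056-8684461, had another time course, with its highest group mean at 4 h in both lines. HT-29 arrays read 10.82, 10.85 and 11.07 untreated, 11.56, 12.53 and 12.68 at 4 h, and 11.93, 11.68 and 11.46 at 24 h. HCT116 arrays read 9.68, 10.93 and 11.21 untreated, 10.996, 12.03 and 12.04 at 4 h, and 10.92, 11.14 and 11.48 at 24 h. In HT-29 both treated groups lay above all untreated arrays, and in HCT116 the groups overlapped, with untreated replicate 1 lowest. The 4 h difference was 1.34 in HT-29 (SE 0.30, fold 2.54, p 0.000824, adjusted p 1), a DET in each of the 9 fits without 1 array and, at 1.64, from replicates 2 and 3 alone. In HCT116 it was 1.09 (SE 0.39, p 0.015, adjusted p 1). That value was 0.62 without untreated replicate 1 and reached the DET limit without untreated replicate 3 (1.39, p 0.00478) or 4 h replicate 1 (1.43, p 0.00347). Same-numbered HCT116 arrays differed by 1.32, 1.105 and 0.83. With the replicate number as a block in limma, ID2 was a DET there at the same difference (p 0.000788, adjusted p 0.998). At 24 h ID2 differed from untreated cells by 0.78 in HT-29 (SE 0.30, p 0.0244) and 0.58 in HCT116 (SE 0.39, p 0.159), neither a DET, and by 0.61 from HT-29 replicates 2 and 3 alone. From 4 h to 24 h the differences were -0.56 in HT-29 and -0.51 in HCT116, not DETs. The HT-29 value was -0.91 without 4 h replicate 1, then a DET (p 0.0046), and -1.03 from replicates 2 and 3 alone (p 0.00582).

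ID4, at chr6:19837370-19842197, encodes a less widely expressed ID protein that can oppose the others. Its values lay between 5.31 and 6.498 over the 18 arrays, and its group means between 5.729 and 5.995. The 4 differences from untreated cells ran from -0.08 to 0.16, with 95% intervals that reached at most 0.75 in HT-29 and 0.60 in HCT116. From HT-29 replicates 2 and 3 alone they were 0.37 at 4 h and -0.05 at 24 h (SE 0.30 each).

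SMAD6 encodes an inhibitory SMAD that competes with the BMP-specific SMADs, and SMAD7 one that acts on BMP and TGF-beta receptors alike. The SMAD6 window is shown because it holds, next to the start, the palindrome of which GTCTAG is part, in capitals, read on both strands at 12 and 10 bases before the start. It lies at chr15:66701986-66702235 on the plus strand (RefSeq, GRCh38.p14).
SMAD6: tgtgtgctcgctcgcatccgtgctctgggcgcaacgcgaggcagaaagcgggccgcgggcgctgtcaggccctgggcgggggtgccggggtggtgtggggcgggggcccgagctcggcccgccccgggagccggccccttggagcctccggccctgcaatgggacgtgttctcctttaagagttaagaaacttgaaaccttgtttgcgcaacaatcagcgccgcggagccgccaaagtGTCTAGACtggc
The SMAD7 window held none of the 5 motifs searched.

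SMAD6, at chr15:66702236-66782849, rose at 24 h in HCT116. Its arrays there read 5.51, 5.05 and 5.39 untreated, 5.15, 5.11 and 4.62 at 4 h, and 6.82, 6.03 and 5.91 at 24 h, so that all 24 h arrays lay above all others. All untreated and 4 h values, and 6.03 and 5.91 at 24 h, lay below the negative-control medians of 6.08 to 6.641. The differences were 0.94 against untreated cells (SE 0.27, p 0.00394, adjusted p 0.382) and 1.29 against 4 h (adjusted p 0.108). The first call was lost without untreated replicate 1, 2 or 3, 4 h replicate 1 or 2, or 24 h replicate 1, with differences of 0.66 to 1.04 and p from 0.00547 to 0.0203. The second held in all 9 fits without 1 array.

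In HT-29, SMAD6 separated replicate 1 from the others more than it separated the conditions. The replicate 1 arrays read 9.89 untreated, 9.81 at 4 h and 9.83 at 24 h. Replicate 2 read 6.05, 4.90 and 7.13 in the same order, and replicate 3 read 6.30, 5.28 and 7.13. Replicates 2 and 3 were thus lowest at 4 h and highest at 24 h, while the replicate 1 arrays stayed within 9.81 to 9.89. The HCT116 group means had the same order, but untreated and 4 h arrays overlapped there. Over all 3 HT-29 replicates the 24 h difference was 0.62 with an SE of 1.29 and a 95% interval from -2.20 to 3.44. With the replicate block the same 24 h difference had an SE of 0.37. From replicates 2 and 3 alone it was 0.96 (SE 0.31, p 0.01) against untreated cells and 2.04 against 4 h (SE 0.31, p 4.41e-05, adjusted p 0.119), the second a DET, and the 4 h difference was -1.08 (SE 0.31), with p at 0.005 after rounding and just over the DET limit. The same replicate 1 arrays had KRT20, an intestinal keratin, at 14.15 against 8.68 and 9.02 in replicates 2 and 3, and CEACAM5, a surface glycoprotein, at 10.10 against 6.41 and 6.33. The part of this split in the SMAD6 level was not tested.

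**Figure D3:**
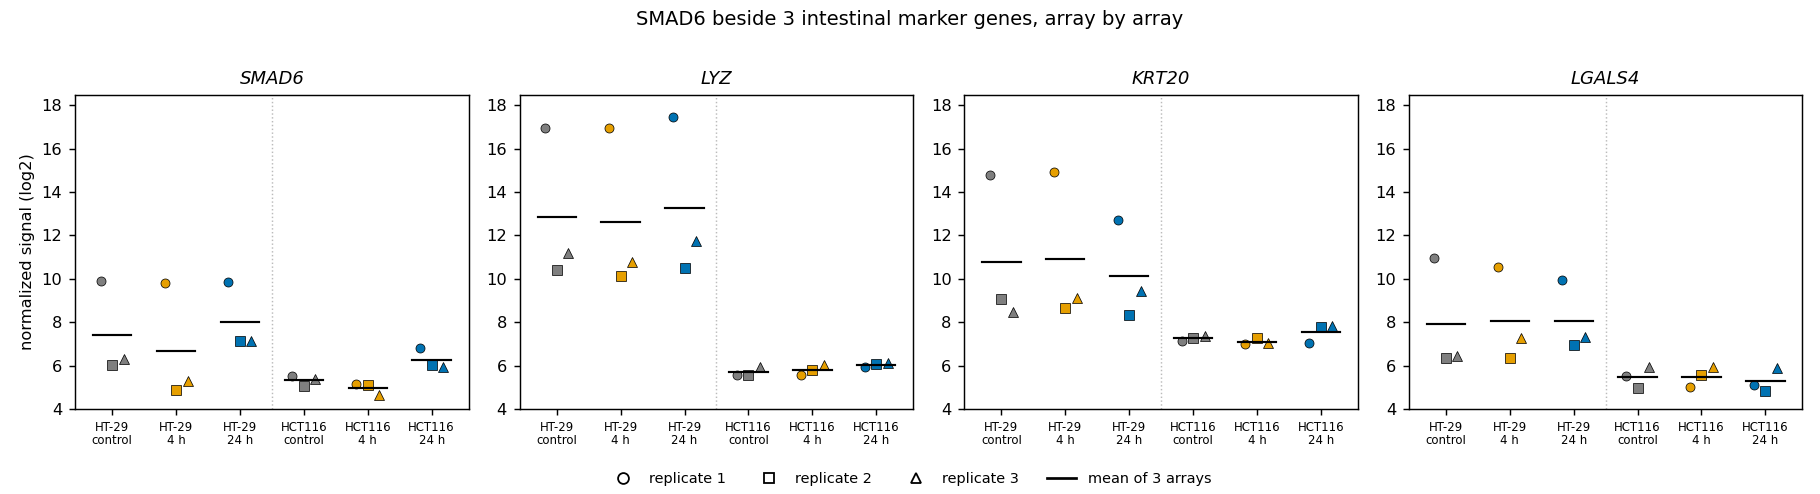
Normalized log2 signal (vertical axis) of SMAD6 and 3 intestinal marker genes on each array, by condition (horizontal axis) and line. The 3 HT-29 replicate 1 arrays were the highest in every panel, with SMAD6 between 9.81 and 9.89 there.

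SMAD7, at chr18:48919853-48950965, passed no test. Its arrays read 9.20, 8.09 and 7.62 untreated, 8.98, 7.78 and 8.88 at 4 h, and 8.77, 8.29 and 8.36 at 24 h in HT-29. HCT116 arrays stayed between 8.03 and 8.59. The differences from untreated cells ran from 0.14 to 0.32 over both lines and times, and the 95% intervals reached at most 1.15 in HT-29 and 0.75 in HCT116. From HT-29 replicates 2 and 3 alone the differences were 0.48 at 4 h and 0.47 at 24 h (SE 0.39 each), not DETs. A second SMAD7 transcript, with a lower mean, read 6.57 to 8.37 over the 18 arrays.

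HES1 is the best known Notch target of the intestinal epithelium, and HES4 is a related repressor gene. Their upstream windows are shown because both hold TGGGAA, the core bound by RBPJ, which occurred in 20.8% of the 35116 windows. Capitals mark TGGGAA only. HES1 lies at chr3:194135898-194136147 on the plus strand and HES4 at chr1:1000098-1000347 on the minus strand (RefSeq, GRCh38.p14).
HES1: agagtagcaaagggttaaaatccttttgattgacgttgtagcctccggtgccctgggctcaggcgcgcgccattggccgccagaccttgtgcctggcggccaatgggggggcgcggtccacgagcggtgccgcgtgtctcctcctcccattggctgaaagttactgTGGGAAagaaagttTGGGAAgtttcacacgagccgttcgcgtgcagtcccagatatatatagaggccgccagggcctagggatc
HES4: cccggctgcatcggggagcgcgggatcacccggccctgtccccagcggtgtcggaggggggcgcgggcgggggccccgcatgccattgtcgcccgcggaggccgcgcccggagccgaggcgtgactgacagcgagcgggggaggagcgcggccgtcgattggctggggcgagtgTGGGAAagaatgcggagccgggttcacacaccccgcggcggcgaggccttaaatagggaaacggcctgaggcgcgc
HES1 held TGGGAA at 84 and 70 bases before the start and HES4 at 76 bases. HES1 also held 3 CACNAG, at 165, 132 and 58 bases, and HES4 none. GGCGCC, an element reported for SMAD1 and SMAD5 and found in 16.4% of windows, occurred in none of the 8 windows matched to these 10 genes.

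HES1, at chr3:194136148-194138732, rose at 24 h in both lines, and its 4 h arrays were spread like the untreated ones. HT-29 arrays read 9.84, 9.07 and 9.37 untreated, 9.62, 9.11 and 9.70 at 4 h, and 10.34, 11.04 and 10.53 at 24 h. HCT116 arrays read 8.79, 9.17 and 9.35 untreated, 9.18, 8.73 and 9.44 at 4 h, and 10.32, 10.30 and 10.57 at 24 h. In both lines the 24 h arrays lay above all others. Some untreated and 4 h values in each line lay within the 8.571 to 9.333 span of the negative-control 95th percentile. The difference from untreated cells was 1.21 in HT-29 (SE 0.29, fold 2.32, p 0.00132, adjusted p 1) and 1.30 in HCT116 (SE 0.23, fold 2.45, p 0.000113, adjusted p 0.15). At 4 h it was 0.05 in HT-29 (0.18 from replicates 2 and 3 alone) and 0.02 in HCT116, with 95% intervals of -0.59 to 0.68 and -0.49 to 0.52. Against 4 h the 24 h arrays were higher by 1.16 in HT-29 (adjusted p 0.422) and 1.28 in HCT116 (adjusted p 0.0757), both DETs. The HCT116 calls held in all 9 fits without 1 array. In HT-29 the call against untreated cells was lost without untreated replicate 2 or 3 or 24 h replicate 2 (p 0.00833, 0.0055 and 0.008), and that against 4 h without 4 h replicate 2 or 24 h replicate 2 (p 0.00897 and 0.0105). From HT-29 replicates 2 and 3 alone the 24 h difference from untreated cells was 1.56, a DET.

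The other repressor genes passed no test. HES4, at chr1:998964-1000097, read between 8.13 and 9.11 in HT-29 and between 8.55 and 9.18 in HCT116, with 24 h differences of -0.25 (95% interval -0.81 to 0.30) and -0.03 (-0.52 to 0.47). HEY1, at chr8:79764010-79767767, lay between 5.64 and 6.77 over the 18 arrays, with 24 h differences of 0.20 (-0.41 to 0.82) and -0.03 (-0.45 to 0.38). From HT-29 replicates 2 and 3 alone the 24 h differences were -0.02 for HES4 (SE 0.29) and 0.42 for HEY1 (SE 0.36), and those at 4 h 0.35 and -0.01. Neither gene was a DET in any comparison, and the HEY1 signal lay in the range of the negative controls.

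BMP4, the ligand gene, stood at percentile 98.5 of all transcripts by mean signal and lies at chr14:53949736-53956891. HT-29 arrays read 14.19, 13.57 and 13.69 untreated, 14.35, 13.47 and 14.75 at 4 h, and 14.33, 13.30 and 13.18 at 24 h. HCT116 arrays read 12.84, 13.83 and 13.75 untreated, 13.72, 14.43 and 14.57 at 4 h, and 13.86, 13.12 and 13.77 at 24 h. The groups overlapped in every comparison with untreated cells. In HCT116 each 4 h array was nonetheless above the untreated array of its number, by 0.888, 0.598 and 0.825. At 4 h the difference was 0.37 in HT-29 (SE 0.38) and 0.77 in HCT116 (SE 0.32, p 0.032, adjusted p 1), and at 24 h it was -0.21 and 0.11. From HT-29 replicates 2 and 3 alone it was 0.48 at 4 h and -0.39 at 24 h (SE 0.40 each). None was a DET, and in neither line was the ligand gene called at 24 h, when ID1 was.

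The change did not differ detectably between the lines for any of the 10 genes. The interaction of line and treatment gave 0 of 10 DETs at 4 h and 0 of 10 at 24 h, where 0.277% and 0.322% of all transcripts passed the same limits in either direction, and 0 of 10 had an unadjusted limma p under 0.05 at either time, against 3.78% and 3.6% of all transcripts. The HCT116 difference minus the HT-29 difference was 0.24 for ID1 at 24 h (95% interval -0.69 to 1.16), 0.08 for HES1 at 24 h (-0.70 to 0.87), -0.38 for ID3 at 24 h (-1.57 to 0.81) and -0.26 for ID2 at 4 h (-1.36 to 0.84). For SMAD6 at 24 h the interval ran from -2.81 to 3.45. These intervals leave room for unequal responses, and the DETs found in 1 line only (ID2 at 4 h in HT-29, ID3 and SMAD6 at 24 h in HCT116) are not shown to be particular to that line. HT-29 replicates 2 and 3 averaged 6.02 and 6.24 in SMAD6, nearer to HCT116 (5.51) than to replicate 1 (9.84), as in the split markers above. What this does to the comparison of the lines was not tested, so the lack of a detected difference is of limited weight.

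Between the 2 times, 2 of 10 genes were higher DETs at 24 h than at 4 h in HT-29 (ID1 and HES1, with 0.517% of all transcripts) and 3 of 10 in HCT116 (ID1, SMAD6 and HES1, with 1.26% of all), and none was lower (0.389% and 0.785% of all). At the adjusted threshold 0 of 10 passed in HT-29, where 0.0228% of all transcripts were called, and 1 of 10 in HCT116 (ID1, with 0.0832% of all). An unadjusted limma p under 0.05 was reached by 3 of 10 in HT-29, with 6.12% of all transcripts, and by 4 of 10 in HCT116, with 10.7%. The choice of the genes and the unlike background limit these counts as they do those against untreated cells. Over the 18 arrays, after each line's mean was taken off, ID1 correlated with HES1 at a Pearson r of 0.885 and with ID3 at 0.847, but with ID2 at 0.084 and with BMP4 at -0.281. ID2 correlated with BMP4 at 0.577. All these points share their arrays, conditions and normalization, so the correlations only describe the time courses given above.

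By the same measure over 18 arrays, the transcripts most like ID1 were WDTC1 (r 0.969), PHGDH, the first enzyme of serine synthesis (0.965), NIPSNAP1 (0.964), AHNAK2 (0.963) and AARS1, alanyl-tRNA synthetase (0.96). PHGDH was higher at 24 h by 2.23 in HT-29 and 2.62 in HCT116, and AARS1 by 1.22 and 1.37. Those most like HES1 were NQO1, a quinone reductase (0.946), FGF19, a secreted growth factor (0.935), FTL, the ferritin light chain (0.931), GARS1, glycyl-tRNA synthetase (0.923) and NFATC2, a transcription factor (0.92). NQO1 was higher at 24 h by 1.45 in HT-29 and 1.79 in HCT116, and FTL by 0.89 and 1.07. These genes were picked for this likeness, so their differences carry no test.

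Of 143 listed ligands, receptors, signal carriers, antagonists, processing factors, coactivators, further targets and bHLH partners, 130 were measured. DETs against untreated cells numbered 0 of 130 in HT-29 at 4 h and 0 of 130 at 24 h, 1 of 130 in HCT116 at 4 h and 5 of 130 at 24 h, all higher, and none passed the adjusted threshold in limma. Of all transcripts, 0.147% and 0.233% were higher DETs in HT-29 at 4 h and 24 h, and 0.116% and 0.824% in HCT116. The background is unlike, since 98455 of the 135750 transcripts are annotated to no gene. In HCT116 at 24 h, a fit of only the 36176 single-gene transcripts called 855 DETs in either direction, beside 1679 of all 135750. DETs were thus more frequent among annotated transcripts in general. The 5 of 130 are therefore not read as a result about the listed genes, and no test was made. The lists were also chosen with earlier results of these data known. The median difference of the 130 was -0.03 and 0.11 in HT-29 at 4 h and 24 h, beside 0.04 and 0.02 over all transcripts, and 0.06 and 0.14 in HCT116, beside -0.02 and -0.02.

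**Figure D4:**
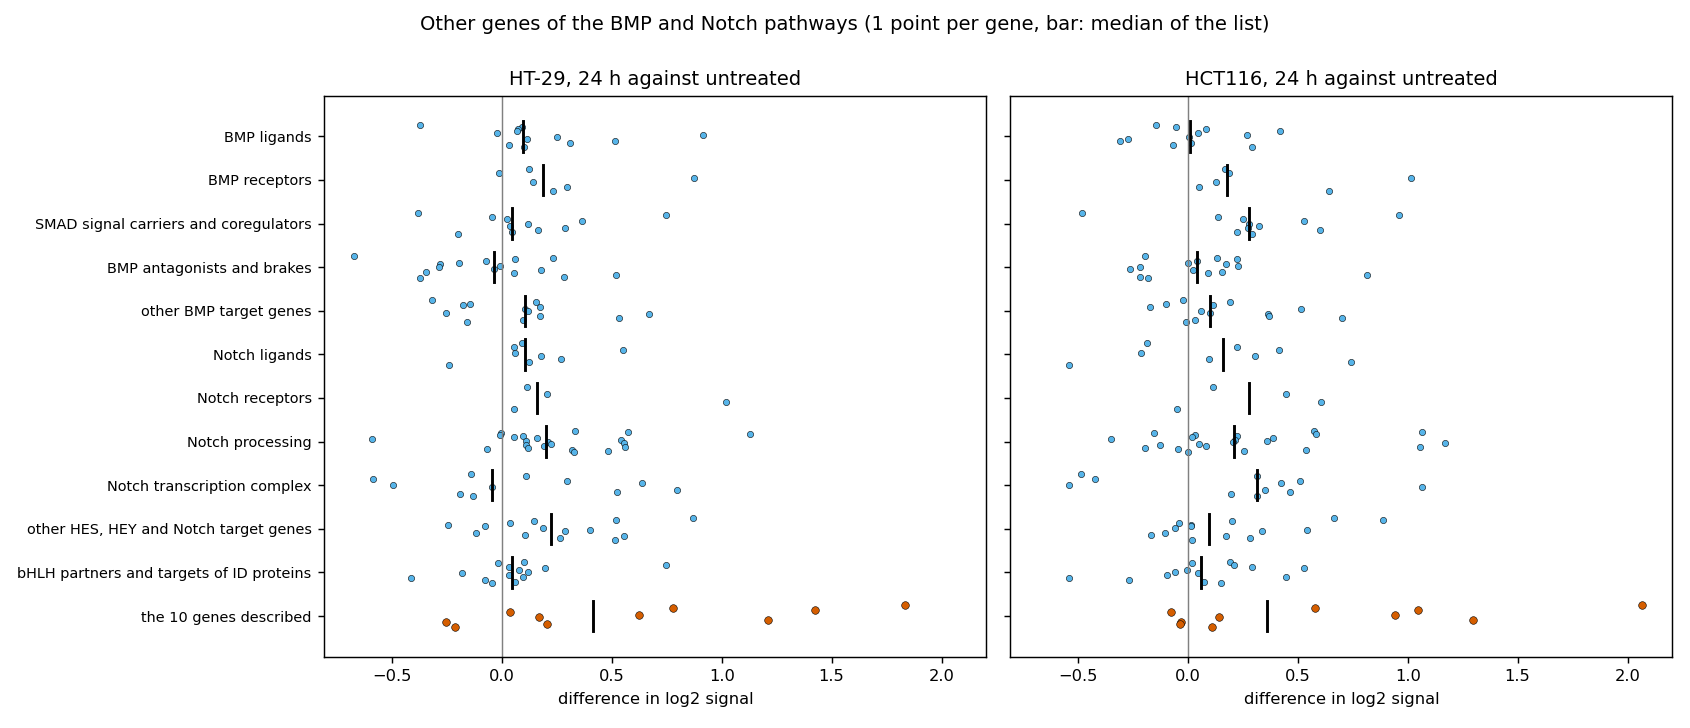
Difference in log2 signal between 24 h of ER and untreated cells (horizontal axis) for other genes of the BMP and Notch pathways, 1 point per gene and 1 row per list, with the list median as a bar, in HT-29 and HCT116. List medians lay between -0.05 and 0.23 in HT-29 and between 0.01 and 0.32 in HCT116.

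On the BMP side, CRIM1, a membrane protein that tethers BMPs, was higher at 4 h in HCT116 by 1.16 (SE 0.33, p 0.00385, adjusted p 1), with arrays at 10.26, 11.89 and 11.02 untreated and 11.98, 12.24 and 12.43 at 4 h. ACVR2B, an activin and BMP receptor, was higher at 24 h in HCT116 by 1.02 (SE 0.29, p 0.0044, adjusted p 0.391), from 7.47, 7.93 and 7.55 to 9.26, 8.80 and 7.94. In both cases every treated array lay above every untreated array, with the nearest pair close together. No ligand, SMAD signal carrier or other BMP target of the lists was a DET against untreated cells in either line.

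On the Notch side, the 4 DETs at 24 h in HCT116 were 2 processing factors, a coactivator and a further repressor gene. ADAM17, a membrane protease that can cut Notch, read 11.54, 11.55 and 11.30 untreated and 12.89, 12.38 and 12.32 at 24 h, a difference of 1.06 (SE 0.21, adjusted p 0.196). NUMB, an inhibitor of Notch, read 11.04, 11.78 and 11.07 untreated and 12.53, 12.49 and 12.03 at 24 h (1.06, SE 0.25, adjusted p 0.309). These 2 have opposite known roles. MAML2, a Mastermind coactivator, was higher by 1.06 (SE 0.29, adjusted p 0.358), and BHLHE41, a bHLH repressor that also answers to the circadian clock and to hypoxia, by 0.89 (SE 0.22, adjusted p 0.31). BHLHE41 split the HT-29 arrays as SMAD6 did, at 14.48 in untreated replicate 1 against 10.501 and 10.19 in replicates 2 and 3. Of the 4 NOTCH receptor genes none was a DET, with differences at 24 h from -0.05 to 0.61 in HCT116 and from 0.05 to 1.02 in HT-29. Between 4 h and 24 h, 6 of 130 were higher DETs in HCT116, where 1.26% of all transcripts were. They included BHLHE40, a related repressor gene, at 1.499, BHLHE41 at 1.21, NUMB at 1.07 and ADAM17 at 0.87. The others were DLL1, a Notch ligand, at 0.79 and RUNX2, a listed BMP target, at 0.735. In HT-29, 2 of 130 were higher DETs, where 0.517% were, ACVR2B at 1.24 and APH1B, a subunit of gamma-secretase, at 1.49.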

How the data were processed

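Total RNA (100 ng per array) of both lines was hybridized to 18 Affymetrix whole-transcriptome arrays. As deposited by the authors, the values are normalized log2 signals per transcript. Per the methods they used RMA separately for each line, mean summarization and log2 transformation. The methods name the oligo package and TAC software, and which of them made these values is not given in the sources used here. Of 138745 features, 2995 control features were left out and 135750 transcripts tested. Of these, 36176 are annotated to a single gene, 1119 to several and 98455 to none, and 25516 gene IDs matched RefSeq (GRCh38.p14), with 0 names changed. The number of arrays, 3 per group, limits the precision: the SE of a difference had a median of 0.29 (HT-29), 0.24 (HCT116) and 0.39 (between lines). In R 4.3.3 (with data.table, version 1.17.8), the 9 arrays of a line entered 1 model in limma 3.58.1, by lmFit and then eBayes, and the lines were compared by the interaction over 18 arrays. All 10 genes are named. Of 11 lists of other pathway genes, at most 3 DETs per list and comparison are named, by smallest p, and the 5 transcripts most like ID1 and HES1. The members and lists were chosen with earlier results of these data known. Alternatives were other thresholds, a plain t-test without permutation, other normalizations, filters and fits, a replicate block and leaving out each array. The replicate block on HT-29 replicates 2 and 3 was added after seeing the data. The fits were tested on simulated data. Promoter windows were searched and figures drawn under Python 3.11.15 (pandas 2.3.3, numpy 2.4.6, matplotlib 3.10.9).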

Additional observations from a re-analysis of the deposited data

How the results depend on the processing

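None of the 12 DET results changed sign in any of 274 alternative values, while the 68 results that were not DETs changed sign in 106 of 1686. Many of these alternatives, such as other thresholds, the t-test, the filters and the replicate block, leave the difference itself unchanged. The sign was fixed in advance there, so these counts overstate how far the signs were tried. At the adjusted threshold the counts of DETs among the 10 genes became 0 in HT-29 at 4 h (1 in the result as given), 0 at 24 h (2) and 0 for 24 h against 4 h (2), and 1 in HCT116 at 24 h (4) and 1 for 24 h against 4 h (3). With a plain t-test of pooled variance they became 0, 1 and 0 in HT-29 and 2 in HCT116 at 24 h. This t-test had no permutation p, so it was not the full procedure of the methods. A fit of only the arrays compared and a fit of all 18 arrays each gave 2 in HCT116 at 24 h, without ID3 and SMAD6, and 3 in HT-29 at 24 h, as array weights did, with ID3 added. Leaving out each array in turn gave 1 to 1, 1 to 3 and 1 to 3 in HT-29, and 0 to 1, 2 to 4 and 3 to 3 in HCT116, for 4 h, 24 h and 24 h against 4 h, and 0 to 0 for both comparisons between the lines. In HCT116 at 24 h the count was 2 without untreated replicate 1, untreated replicate 2, 4 h replicate 2 or 24 h replicate 1. The replicate numbers were not taken to pair the arrays, since not every pair was over 0.1: deviations of same-numbered arrays correlated at -0.148 to 0.5 in HT-29 and -0.071 to 0.245 in HCT116, and 5 of 9 pairs in each line were over 0.1, among them all 3 pairs of replicate 1 (0.105 to 0.5 and 0.168 to 0.207). With the replicate block the count was 4 in HT-29 for 24 h against 4 h, with ID3 and SMAD6 added, and 1 in HCT116 at 4 h (ID2). The limma p of ID2 there was 0.000788. At 24 h in HT-29 the count was 3, with ID3 added (p 0.000368). For 24 h against 4 h, the adjusted p with the block was 0.0492 for ID1 in HT-29 and 0.0497 for HES1 in HCT116. The SE of the SMAD6 difference at 24 h in HT-29 fell from 1.29 to 0.37 with the block, so the choice not to pair matters for these results. The following counts of DETs over all transcripts moved by more than 1.5 times from the result as given. In HT-29 at 4 h (303) they moved to 1766 with replicates 2 and 3 alone and 1457 with the replicate block added there. They also moved there to 1440 without 4 h replicate 1 and 697 with all 18 arrays. At 24 h (512) they moved to 926 with all 18 arrays and 892 with array weights. For 24 h against 4 h (1230) they moved to 2165 with all 18 arrays, 758 with the plain t-test and 2462 without 4 h replicate 1. In HCT116 they moved at 4 h (394) to 241 with all 18 arrays and 689 with array weights, at 24 h (1679) to 935 with the t-test, 1101 with all 18 arrays, 1116 with only the arrays compared and 1096 without untreated replicate 3, and for 24 h against 4 h (2774) to 1447 with the t-test and 1780 to 1844 without 1 of the 4 h arrays. Between the lines, HT-29 replicates 2 and 3 alone moved them to 1298 at 4 h (376) and 796 at 24 h (437), and leaving out HT-29 4 h replicate 1 or HCT116 untreated replicate 3 gave 1272 and 239 at 4 h. Filters that test fewer transcripts lowered all these counts, which are not shares of the transcripts tested. The cause was not tested. Signals in the range of the negative controls limit what ID4, HEY1 and SMAD6 can show. HES4, SMAD7 and the untreated ID3 values, none above 9.25, also lay within or below the 8.571 to 9.333 span of the negative-control 95th percentile. So did the ID3 values at 4 h, other than 9.79 in HT-29, and the 24 h value of 9.30 in HCT116. HES1 lay within this span in HT-29 replicate 2, at 9.07 untreated and 9.11 at 4 h. In HCT116 it did so at 8.79 and 9.17 untreated and at 9.18 and 8.73 at 4 h. The other HES1 values lay above the span.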
